A study of Mus musculus with 29 samples.

Results

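AMPA receptors, their subunit genes Gria1, Gria2, Gria3 and Gria4, and 5 genes of proteins that travel with them, Cacng2, Cacng3, Cacng8, Cnih2 and Cnih3, were followed through contextual fear conditioning in the mouse. The 9 genes were taken by name, and all 9 were listed in each of 4 gene tables, which together hold 15672 genes. In this form of learning a mouse meets an unfamiliar chamber and receives a footshock there, while a control group meets the chamber with no shock. The mice were males of the strain the labels write as C56BL/6, aged 3 months and housed alone, and no genetic change is named in any group. The hippocampal field CA1 gave 5 naive libraries, 5 from mice that had met only the context 1 h earlier and 4 from mice given context and a 0.7 mA shock 1 h earlier. The anterior cingulate cortex (ACC) gave 5 naive libraries, 5 from mice exposed to the context 4 weeks before and 5 from mice shocked in it 4 weeks before. That makes 29 libraries of polyadenylated RNA in 6 groups. The labels give 1 age for all groups and do not say whether CA1 and ACC came from the same naive mice, or whether naive mice were as old at death as the mice kept for 4 weeks, so age and waiting cannot be told apart from training in ACC. Region and time cannot be told apart between CA1 and ACC.

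AMPA receptors are the glutamate-gated channels that carry most fast excitatory transmission in the brain. They assemble from the subunits GluA1 to GluA4, encoded by Gria1 to Gria4, and those that hold the edited form of GluA2 pass little calcium. Transmembrane AMPA receptor regulatory proteins (TARPs, here Cacng2, Cacng3 and Cacng8) bring the receptors to the surface and to the synapse and shape their gating, and cornichon proteins (Cnih2, Cnih3) help export them and slow their closing. In the hippocampus, the insertion of GluA1-containing receptors is a known step of synaptic potentiation, and the product of Cacng8 is the TARP best known from that region.

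The values came from the authors' deposited tables, 1 for each trained group, with the naive libraries of that region as the reference. For every gene a table gives a base mean, which is the normalised read count averaged over the libraries of both groups, together with a log2 fold change and its p-value, raw and adjusted. No value per library was given, so the sequencing depth is unknown, replicates cannot be shown singly, and the spread between mice enters through the authors' p alone. A gene was called at an adjusted p under 0.05, and the 95% interval quoted beside a fold change was worked out from the fold change and its p. Group means of normalised counts were derived from the base mean, the fold change and the group sizes. The headers do not name the direction of a fold change. With positive values read as higher in trained mice, the naive level derived from the context table and that from the shock table of a region differed between genes with an SD of only 0.0031 (CA1, 11278 genes) and 0.0091 (ACC, 11410 genes) on the log2 scale, and with the sign turned round the SDs were 0.092 and 0.154. Positive values are therefore given here as higher in trained mice. The median naive level over genes was higher in the shock table than in the context table by 0.012 in CA1 and 0.127 in ACC (log2). Derived counts are therefore comparable within a table and not between the tables of a region.

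The tissue labels were set beside marker genes. Fibcd1, a marker of CA1 pyramidal cells, had a base mean of 4061 in CA1 and 128 in ACC in the authors' deposited tables for context. Tbr1, a marker of deep cortical layers, had 1327 in CA1 and 3603 in ACC in the same authors' deposited tables, and every gene of the 10 marker lists was measured in both regions. In the authors' deposited tables for CA1, all 3 endothelial markers were called higher after context and after shock, and 3 of 4 cortical layer markers were called lower after shock (Tbr1 at -0.36, Cux2 at -0.63, Rorb at -0.24). In ACC after shock, the authors' deposited table called 2 of 3 neuronal markers lower (Syt1 at -0.22 and Snap25 at -0.08), 2 of 3 astrocyte markers lower and 2 of 3 microglial markers higher. Of the 3 endothelial markers there, Flt1 (-0.49) and Pecam1 (-0.29) were called lower and Cldn5 (0.64) higher in the authors' deposited table. For the context alone in ACC, the microglial markers Aif1 (0.59) and C1qa (0.30) and the endothelial Cldn5 (0.42) were called higher and the interneuron marker Gad2 (-0.25) lower in the authors' deposited table. The part of these shifts in the results below was not tested. In bulk tissue, fewer cells of a type and less RNA per cell cannot be told apart.

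The coordinates in the deposited tables are those of mm10. Gria1 (ENSMUSG00000020524) lies at chr11:57011387-57330244 on the plus strand. Gria2 (ENSMUSG00000033981) lies at chr3:80684936-80802791 on the minus strand. Gria3 (ENSMUSG00000001986) is X-linked, at chrX:41400854-41678601 on the plus strand. Gria4 (ENSMUSG00000025892) lies at chr9:4417899-4796234 on the minus strand. Cacng2 (ENSMUSG00000019146) lies at chr15:77991748-78120028 on the minus strand. Cacng3 (ENSMUSG00000066189, chr7:122670492-122769393) and Cacng8 (ENSMUSG00000053395, chr7:3390683-3415648) share a chromosome and the plus strand. Cnih2 (ENSMUSG00000024873) is the most compact locus, at chr19:5092871-5098418 on the minus strand, and Cnih3 (ENSMUSG00000026514) lies at chr1:181352628-181460641 on the plus strand.

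The transcripts differ widely in length and base composition, which bears on the ACC results. The longest annotated transcript of Gria2 has 10371 nt, longer than 97.8% of measured genes, with 36.8% GC, the lowest 0.98% of genes. The annotation used for length (GENCODE M21) places Gria2 at chr3:80681450-80802835, past the deposited bounds at the 3′ end. The length may thus exceed the part that was counted, and the levels per kb and trend-subtracted values of Gria2 rest on it. Gria1 has 5546 nt (48.5% GC), Gria3 5206 nt (39.8%), Gria4 5441 nt (44.3%) and Cacng2 5510 nt (51.2%). The other auxiliary genes are short: Cacng3 has 2777 nt (54.6% GC), Cnih3 2668 nt (53.3%), Cacng8 1897 nt (65.1%) and Cnih2 1343 nt (62.3%). The 4 subunits and Cacng2 thus form the long group, and the GC content of Cacng8 and Cnih2 lies in the top 2% of genes.

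The 250 bases before the annotated start of 4 genes are shown, since Gria2 and Gria4 fell and Cnih2 and Cacng8 rose in ACC after shock. Of the other 2 genes called there, Gria3 has no window in the table and that of Cacng2 lies within an annotated exon. The sequences are RefSeq's for build GRCm38.p6, written 5′ to 3′ on the strand of the gene, with motif matches in capitals. They span chr3:80802836-80803085, minus strand, for Gria2, chr9:4796235-4796484, minus strand, for Gria4, chr19:5098522-5098771, minus strand, for Cnih2 and chr7:3393792-3394041, plus strand, for Cacng8, whose RefSeq start lies inside the bounds the deposited tables give the gene.
Gria2: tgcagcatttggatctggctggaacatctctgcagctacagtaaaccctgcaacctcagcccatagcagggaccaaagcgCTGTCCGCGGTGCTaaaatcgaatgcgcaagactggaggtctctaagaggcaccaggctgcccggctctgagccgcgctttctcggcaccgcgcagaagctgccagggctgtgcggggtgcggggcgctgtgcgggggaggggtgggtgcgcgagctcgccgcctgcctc
Gria4: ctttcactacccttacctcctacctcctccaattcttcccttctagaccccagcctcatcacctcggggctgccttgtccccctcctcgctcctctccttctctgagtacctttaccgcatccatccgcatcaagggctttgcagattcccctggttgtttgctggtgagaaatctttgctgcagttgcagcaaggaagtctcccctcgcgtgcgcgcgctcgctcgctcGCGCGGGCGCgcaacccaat
Cnih2: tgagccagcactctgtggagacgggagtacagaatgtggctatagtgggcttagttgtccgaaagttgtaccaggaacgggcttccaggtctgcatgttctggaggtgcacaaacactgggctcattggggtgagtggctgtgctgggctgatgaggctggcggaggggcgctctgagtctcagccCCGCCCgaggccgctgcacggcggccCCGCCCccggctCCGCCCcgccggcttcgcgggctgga
Cacng8: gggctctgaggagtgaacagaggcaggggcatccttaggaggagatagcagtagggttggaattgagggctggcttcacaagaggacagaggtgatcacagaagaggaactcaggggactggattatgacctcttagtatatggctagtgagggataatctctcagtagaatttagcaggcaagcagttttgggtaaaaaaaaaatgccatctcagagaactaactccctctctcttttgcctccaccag
The capitals in Gria2 match, on the opposite strand, a core of the RE1 element bound by the repressor REST, AGCACC and GGACAG with 2 bases between them, which was searched after the window had been read and occurs in 0.0457% of 32851 RefSeq windows of this length. The capitals in Gria4 match the NRF-1 motif, GCGC and GCGC with 2 bases between them, held by 4.98% of windows. Those in Cnih2 are 3 matches of the GC box GGGCGG, held by 32.7% of windows. Neither the cAMP response element TGACGTCA (1.55% of windows) nor the AP-1 motif TGANTCA (6.75%) occurs in these 4 windows, and the window of Cacng8 holds no match of any motif searched. The Cacng8 window has 48.0% GC and 0 CpG dinucleotides, and lies past the deposited gene start (chr7:3390683). Its lack of matches therefore says nothing about the sequence before that start. All 5 motifs were searched on both strands, and no printed match overlaps a match of another motif. The table holds windows for 7 of the 9 genes, all but Gria1 and Gria3. A match describes the letters of the window and does not show binding.

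Levels were compared between genes per kilobase of the longest transcript. In naive CA1 the order of derived group means was Cnih2 (4033 normalised counts per kb), Gria1 (2717), Gria2 (1683), Gria3 (1087), Cnih3 (670.1), Cacng3 (612), Cacng8 (585), Gria4 (373) and Cacng2 (231). In naive ACC, from the context table, the order was Cnih2 (2086 per kb), Gria2 (1633), Gria3 (1493), Gria1 (1425), Cacng3 (1192), Cnih3 (815), Gria4 (555), Cacng2 (362) and Cacng8 (332). The spread of these levels between mice is unknown, so neighbours in the order cannot be ranked firmly. With the mean instead of the longest transcript length, the base mean per kb of Gria2 was the highest in ACC (3759 in the context table) and Cnih2 was still the highest in CA1.

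**Figure D1:**
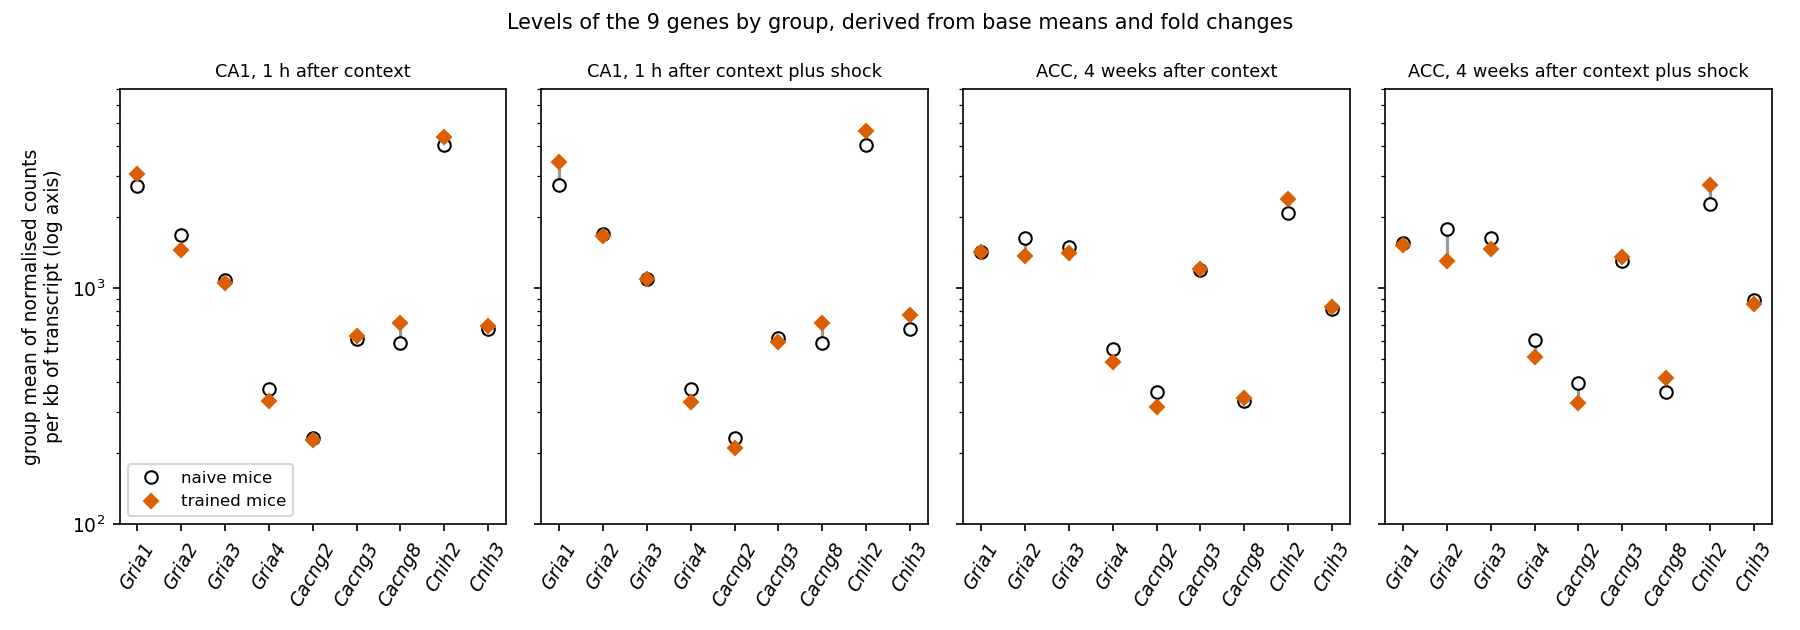
Group means of normalised counts per kb of the longest transcript (log axis) for the 9 genes in each comparison, derived from the authors' deposited base means and fold changes. Open circles are naive mice and filled diamonds trained mice; each point is a group mean with no error known. Cnih2 is highest in every group at these lengths, and the distance between circle and diamond is small beside the differences between genes.

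Gria1 made up 46.4% of the summed subunit level per kb in naive CA1 and 27.9% in naive ACC. Gria2 held 28.7% of that sum in naive CA1 and 32.0% in naive ACC. All shares of the subunits depend on the length used for Gria2, which may be too long. The regional contrast can also be put as a ratio of base means in the authors' deposited tables for context, which were normalised separately and are set side by side without a test. Gria1 (2.02), Cacng8 (1.93) and Cnih2 (1.88) had about double the base mean in CA1. Gria2 was at 1.04, Cnih3 at 0.830, Gria3 at 0.735, Gria4 at 0.680, Cacng2 at 0.679 and Cacng3 at 0.518. Over all genes the median log2 ratio was -0.09 between these tables, so the ratios of Gria1, Cacng8 and Cnih2 lay above the 98th percentile of genes. Transcripts of Gria1, Cacng8 and Cnih2 thus shared the CA1-weighted side, and Cacng3 had the most ACC-weighted transcript of the 9.

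One hour after the context alone, 1 of the 9 genes rose in CA1 and none fell. The background was 8.03% of 15123 genes called, 4.62% higher and 3.41% lower. The gene was Cacng8, whose derived group mean went from 1110 normalised counts in naive mice to 1358 in exposed mice. Its log2 fold change was 0.29 (95% interval 0.10 to 0.48) in the authors' deposited table, with an adjusted p of 0.0422.

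The subunits were not called after context. Gria1 went from a derived 15067 to 16909 normalised counts, a log2 fold change of 0.17 (0.03 to 0.30) in the authors' deposited table with an adjusted p of 0.125. Gria2 had 17452 in naive and 15089 in exposed mice, at -0.21 (-0.38 to -0.04) in the authors' deposited table, with an adjusted p of 0.107. These 2 subunits, the most abundant in CA1, thus had fold changes of opposite sign, neither past the threshold. Gria4 was at -0.16 (adjusted p = 0.181) and Gria3 at -0.05 (adjusted p = 0.764) in the authors' deposited table. Among the remaining auxiliary genes, Cnih2 was at 0.12 (-0.09 to 0.33), Cnih3 at 0.05, Cacng3 at 0.04 and Cacng2 at -0.03 in the authors' deposited table, with adjusted p between 0.573 and 0.842. Unadjusted p was under 0.05 for 4 of the 9 genes, against 21.2% of all genes. The median log2 fold change of the 9 was 0.04, against -0.0036 over all genes.

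One hour after context and shock, Gria1 and Cacng8 rose in CA1 and no gene fell, so 2 of 9 were called against 6.05% of 15115 genes (3.21% higher, 2.84% lower). The derived level of Gria1 went from 15188 normalised counts in naive mice to 19092 in shocked mice. That was 1.26-fold, a log2 fold change of 0.33 (95% interval 0.18 to 0.48) in the authors' deposited table with an adjusted p of 0.00074. Gria1 is also the subunit with the highest level per kb in CA1, and its share of the summed subunit level was 46.3% in naive and 52.7% in shocked mice. Cacng8 went from 1119 to 1349 normalised counts, with a log2 fold change of 0.27 (0.09 to 0.45) and an adjusted p of 0.048 in the authors' deposited table.

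The other subunits did not pass the threshold. Gria2 had a derived 17616 normalised counts in naive and 17254 in shocked mice, at -0.03 (-0.21 to 0.15) in the authors' deposited table. That interval rests on an error borrowed from the context comparison. Gria3 was listed at exactly 0.00, in a table rounded to 2 decimals in which 402 genes have that value. Gria4 was at -0.19 (-0.34 to -0.04) with an adjusted p of 0.129 in the authors' deposited table. Among auxiliary genes, Cnih2 was at 0.19 (0.03 to 0.35, adjusted p = 0.165), Cnih3 at 0.19 (-0.04 to 0.42, adjusted p = 0.384), Cacng2 at -0.14 (adjusted p = 0.209) and Cacng3 at -0.06 (adjusted p = 0.719) in the authors' deposited table. Unadjusted p was under 0.05 for 5 of the 9, against 18.7% of all genes, and the median fold change was 0.00 against -0.01 over all genes.

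**Figure D2:**
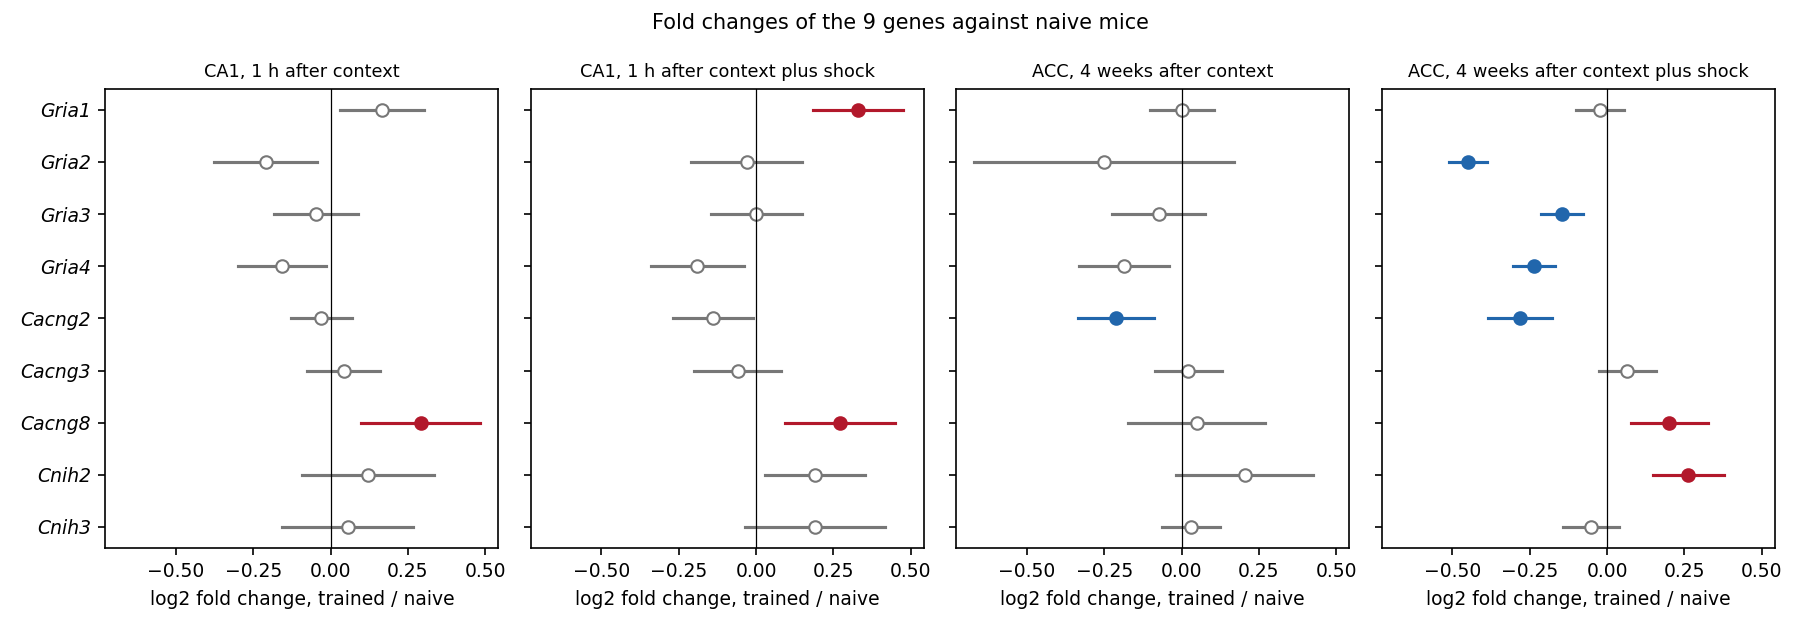
Log2 fold change of each gene (trained over naive mice, horizontal axis) in the 4 comparisons, from the authors' deposited tables. The 95% intervals were worked out from the p-values. For Gria2 and Gria3 in CA1 after shock the intervals instead rest on an error borrowed from the context comparison. Filled red points were called higher and filled blue points lower at an adjusted p under 0.05; open grey points were not called. Gria1 and Cacng8 are the calls in CA1 after shock, and Gria2 at -0.45 is the farthest from 0 of the points drawn.

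In ACC, 4 weeks after the context alone, Cacng2 fell and no gene rose, so 1 of 9 was called where 19.6% of 15270 genes were (9.37% higher, 10.2% lower). Cacng2 encodes stargazin, the founding TARP. Its derived group mean was 1996 normalised counts in naive and 1724 in exposed mice, with a log2 fold change of -0.21 (95% interval -0.33 to -0.09) and an adjusted p of 0.00697 in the authors' deposited table. Gria4 was at -0.19 (-0.33 to -0.04) with an adjusted p of 0.0582 in the authors' deposited table, just outside the threshold.

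Gria2 had a wide interval in this comparison. It was at -0.25 (-0.67 to 0.17) with an adjusted p of 0.457 in the authors' deposited table, and derived means of 16936 and 14241 normalised counts. The implied standard error of 0.215 was larger than that of 99.7% of genes with a base mean of at least 1000, whose median was 0.0619. In the comparison of shocked mice with the same naive mice the implied error of Gria2 was 0.0320. Which libraries carry that spread cannot be read from the tables. The remaining genes were near 0: in the authors' deposited table Gria1 was at 0.0006, Gria3 at -0.07, Cacng3 at 0.02, Cnih3 at 0.03 and Cacng8 at 0.05. Cnih2 was at 0.20 (-0.02 to 0.42, adjusted p = 0.205) in the authors' deposited table.

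In ACC, 4 weeks after context and shock, 6 of the 9 genes were called, 4 lower and 2 higher, in a comparison where 41.6% of 15455 genes were called, 19.8% higher and 21.8% lower. Of the subunits, 3 fell. Gria2 went from a derived 18565 normalised counts in naive mice to 13595 in shocked mice, 0.732-fold, with a log2 fold change of -0.45 (95% interval -0.51 to -0.39) and an adjusted p of 9.59e-42 in the authors' deposited table. Gria4 went from 3294 to 2795, with -0.24 (-0.30 to -0.17) and an adjusted p of 1.47e-10 in the authors' deposited table. Gria3 went from 8484 to 7669, with -0.15 (-0.21 to -0.08) and an adjusted p of 0.000108 in the authors' deposited table. Gria1 was not called, at 8629 in naive and 8497 in shocked mice and -0.02 (-0.10 to 0.05) in the authors' deposited table. The share of Gria2 in the summed subunit level per kb was 32.1% in naive and 27.1% in shocked mice, and that of Gria1 was 27.9% and 31.7%.

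Auxiliary genes were called in both directions after shock in ACC. Cacng2 fell from a derived 2181 to 1793 normalised counts, at -0.28 (-0.39 to -0.18) and an adjusted p of 6.83e-07 in the authors' deposited table. Cnih2 rose from 3056 to 3667, which is 1.20-fold, at 0.26 (0.15 to 0.38) and an adjusted p of 3.28e-05 in the authors' deposited table. Cacng8 rose from 688 to 791, at 0.20 (0.08 to 0.32) and an adjusted p of 0.00471 in the authors' deposited table. Cacng3 was at 0.07 (adjusted p = 0.271) and Cnih3 at -0.05 (adjusted p = 0.378), not called, in the authors' deposited table. Over the 9 genes the median was -0.05 against 0.0063 over all genes, and the median absolute fold change was 0.20 against 0.16.

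In ACC the fold changes of all genes followed the transcript. Across 11506 genes with a base mean of at least 100, which are not independent replicates, Spearman's rho after shock was -0.53 with transcript length and 0.56 with GC content. After context in ACC it was -0.61 with length and 0.21 with GC content (11351 genes). In CA1 it was 0.17 and 0.34 after context, and 0.083 and 0.032 after shock. The median fold change in ACC after shock was 0.15 in the shortest 20% of genes and -0.17 in the longest 20%. Of the genes described here, the long, AT-rich Gria2 was lowest and the short, GC-rich Cnih2 and Cacng8 were highest. Between these ends the order differed from that of length, with Gria1, the second longest, at -0.02 and the slightly shorter Cacng2 at -0.28 in the authors' deposited table.

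With a spline on length and GC content over all genes subtracted, 2 of the 9 genes passed in ACC after shock, both lower, where 24.4% of genes passed. Cacng2 remained past the threshold at -0.23 (adjusted p = 0.000205), and Cnih3 entered at -0.17 (adjusted p = 0.00278). Gria2 went to -0.06 (adjusted p = 0.152), Gria4 to -0.07 (adjusted p = 0.117), Gria3 to 0.07 (adjusted p = 0.121, with the sign turned), Cnih2 to 0.02 (adjusted p = 0.838) and Cacng8 to 0.0015 (adjusted p = 0.991). With length alone subtracted, Gria2 was at -0.20, Gria4 at -0.14 and Cacng2 at -0.18, and these 3 passed, against 32.9% of genes. Both subtracted values of Gria2 rest on a transcript length that may exceed the part counted. In ACC after context, Cacng2 went to -0.14 (adjusted p = 0.166) and none of the 9 passed, against 9.88% of genes. In CA1 after shock the same subtraction left Gria1 at 0.32 (adjusted p = 0.00129) and Cacng8 at 0.43 (adjusted p = 0.000194), and brought Cnih2 past the threshold at 0.28 (adjusted p = 0.0185), so 3 of 9 passed against 6.09% of genes. In CA1 after context Cacng8 was at 0.37 (adjusted p = 0.0119), the 1 gene of 9 to pass, against 4.13% of genes.

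**Figure D3:**
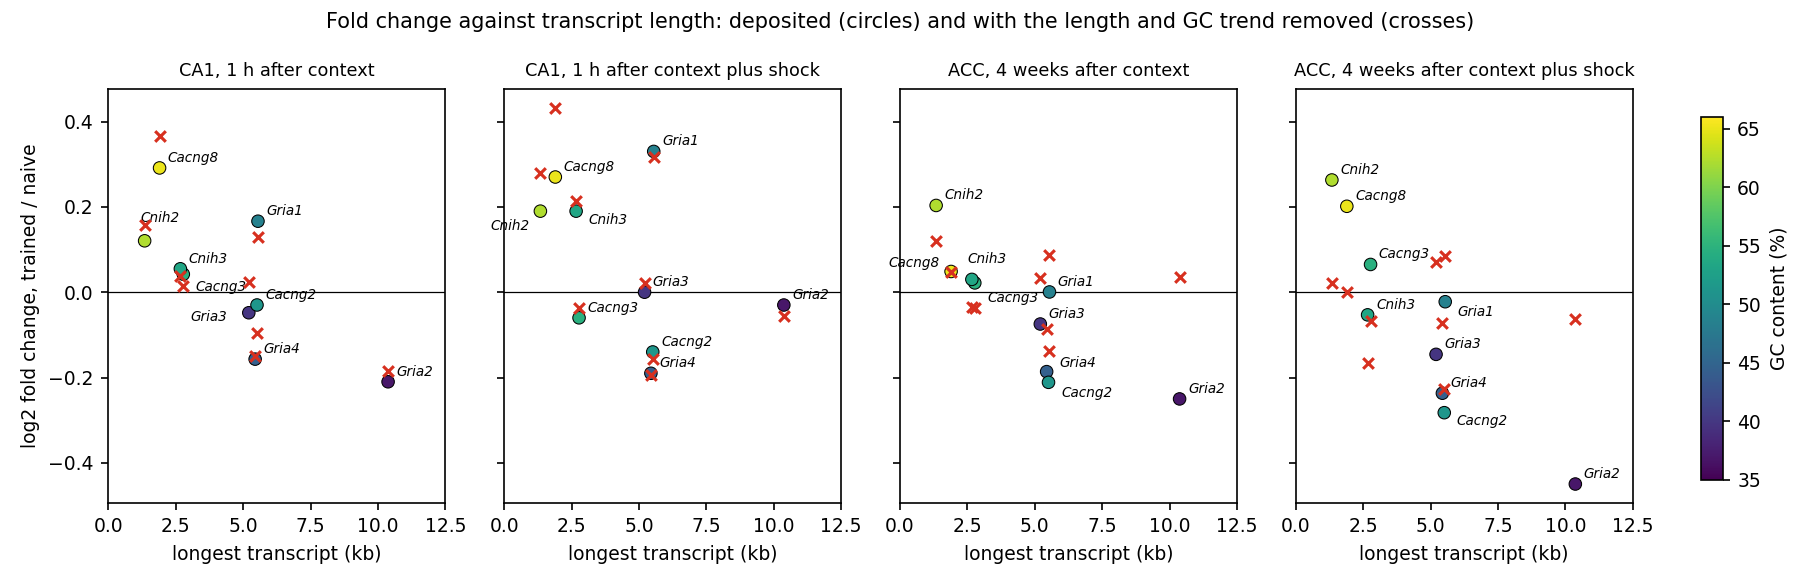
Log2 fold change (trained over naive mice) against the length of the longest transcript in kb for the 9 genes, with the circle colour giving GC content in percent. Circles are the authors' deposited fold changes and red crosses the same genes with the length and GC trend of all genes subtracted. In ACC after shock the circles run from Cnih2 at 0.26 to Gria2 at -0.45, and the crosses from 0.08 for Gria1 to -0.23 for Cacng2.

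The effect of the shock beyond the context was asked by subtracting the fold changes of the 2 comparisons of a region, which share the naive mice. With the errors of the comparisons taken as independent, none of the 9 differences was called in CA1, where 0.00665% of genes were. At an unadjusted p under 0.05, by the normal test on the difference, there were also 0 of 9, against 1.0% of genes. Gria1 was 0.16 higher after shock than after context (95% interval -0.04 to 0.36), and Gria2 0.18 higher (-0.06 to 0.42). With the variance of the shared naive mice taken out, the intervals were 0.02 to 0.31 for Gria1 (unadjusted p = 0.0284) and 0.0001 to 0.36 for Gria2 (unadjusted p = 0.0499). These 2 of 9 genes, against 4.69% of all genes, then had an unadjusted p under 0.05, and neither passed after adjustment (adjusted p = 0.998 for both). That variance was assumed and not observed, and what remained was the larger of the 2 errors. For Gria2 this error was borrowed from the context table and its fold change after shock is rounded, so its place beside the 0.05 limit is not firm. The call of Gria1 after shock and not after context is therefore not a difference shown after adjustment. In ACC, with the errors taken as independent, none of the 9 differences was called either, against 1.59% of genes. At an unadjusted p under 0.05, by the same normal test, there were 0 of 9, against 1824 of 15243 genes. The difference for Gria2 was -0.20 (-0.62 to 0.23) and that for Cacng8 0.15 (-0.10 to 0.41). With the variance of the shared naive mice taken out in ACC, 0 of 9 had an unadjusted p under 0.05, against 3203 of 15243 genes. None of the 9 was then called, against 921 of all genes.

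The shock effect in ACC at 4 weeks and that in CA1 at 1 h differed for Gria1 and Gria2, 2 of 9 genes, against 25.0% of genes. The difference, ACC minus CA1, was -0.35 for Gria1 (95% interval -0.52 to -0.19, adjusted p = 0.000407 by the normal test on the difference with Benjamini-Hochberg adjustment). Gria1 rose in CA1 and was near 0 in ACC. For Gria2 the difference was -0.42 (-0.61 to -0.23, adjusted p = 0.000246), with a fall in ACC and a value near 0 in CA1. The CA1 error of Gria2 used here was borrowed from the context comparison. With the length and GC trend subtracted from both, Gria1 kept a difference of -0.23 (adjusted p = 0.0411) and that of Gria2 was -0.0057 (adjusted p = 0.983). The same subtraction called Cacng8 at -0.43 (adjusted p = 0.00192) and Cnih3 at -0.38 (adjusted p = 0.0215). No share of all genes is given here for the subtracted differences, so these calls cannot be set against a background. After context, none of the 9 differences between ACC and CA1 was called, against 14.4% of genes. The smallest adjusted p was that of Cacng2, at -0.18 (adjusted p = 0.114 by the same normal test).

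The exon tables list bins, the non-overlapping pieces of a gene's exons, at an adjusted p under 0.1. How exons were tested is not given, and the fold changes of bins were assumed to be relative to the rest of the gene. Their direction was read in the same way: where a bin was listed after context and after shock, its mean count relative to the gene, as a log2 ratio of shock to context, increased with the difference in fold change (slope 1.14 over 70 bins in CA1 and 0.54 over 2036 bins in ACC, across bins). None of the 9 genes had a listed bin in CA1 after context, where 0.0924% of bins were listed (of the 210048 tested, a number implied by the adjusted p). In CA1 after shock 2 bins were listed, against 0.0902% of all bins. Gria4 bin E001 was lower at -0.23 (adjusted p = 0.000171) and Gria1 bin E010 higher at 0.12 (adjusted p = 0.0804) in the authors' deposited table. In ACC, 13 bins of 5 genes were listed after context, 4 higher and 9 lower, where 2.22% of all bins and bins of 2900 genes were listed. After shock in ACC, 13 bins of 6 genes were listed, 6 higher and 7 lower, where 1.26% of all bins and bins of 1865 genes were listed. How many bins of the 9 genes were tested is not given, so these counts cannot be set against the shares of all bins. Cacng8 and Cnih3 had no listed bin in any table.

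The bins that were higher in ACC lay at one end of the gene. Gria1 bin E024 was higher at 0.11 after context (adjusted p = 2.74e-21) and at 0.13 after shock (adjusted p = 0.000595) in the authors' deposited tables. If the numbering follows the GENCODE M21 annotation, whose gene bounds equal the file's for Gria1, this is a 2798 nt piece at chr11:57327443-57330240, the 3′ end of a plus-strand gene. Gria3 bin E036 was higher at 0.17 (adjusted p = 1.30e-11) and 0.19 (adjusted p = 9.52e-05) in the authors' deposited tables, and is a 2006 nt piece at the 3′ end if the bins of Gm22413, a short gene merged with it in the exon tables, are numbered along with its own. Gria2 bin E001 was higher at 0.09 (adjusted p = 1.38e-17) and 0.11 (adjusted p = 0.0157) in the authors' deposited tables. Gria4 bin E001 was at 0.11 (adjusted p = 0.00185) and 0.15 (adjusted p = 0.0964) there. On minus-strand genes such as these, bin E001 is the 3′ end if bins are numbered by coordinate. After shock, Cacng2 bin E001 (0.05, adjusted p = 0.000314) and Cacng3 bin E008 (0.06, adjusted p = 0.0452) were also listed as higher in the authors' deposited table, and both are last exons under that numbering, of 3937 and 853 nt.

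The lower bins lay inside the genes or at the other end. In the authors' deposited tables for ACC after context and after shock, Gria1 bin E009 was at -0.26 and -0.17, Gria1 bin E002 at -0.33 and -0.27, and Gria3 bin E015 at -0.25 and -0.20. Gria2 bin E016 was at -0.18 and -0.14 and bin E019 at -0.17 and -0.14 in the same authors' deposited tables. Gria2 bins E017 (-0.15) and E018 (-0.25), Gria3 bin E014 (-0.38) and Cnih2 bin E002 (-0.13) were listed after context alone, and Gria2 bin E015 (-0.23) and Cacng2 bin E004 (-0.21) after shock alone, in the authors' deposited tables. Cacng2 bin E004 is the first exon, 1348 nt, under the M21 numbering. The deposited bins of Gria2, Gria3 and Gria4 are merged with short annotated genes inside them (Gm25749, Gm22413 and Gm23811), and the bounds of Gria2, Gria4 and Cnih2 differ from M21, so the bins of these genes are given no coordinates. Across the whole ACC exon tables the same lean was present: of minus-strand E001 bins listed, 792 of 800 were higher after context and 485 of 496 after shock, and of plus-strand E001 bins 0 of 46 and 0 of 11. In CA1 the minus-strand E001 bins were higher in 0 of 37 and 1 of 29 cases, and the CA1 bin of Gria4 was lower.

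**Figure D4:**
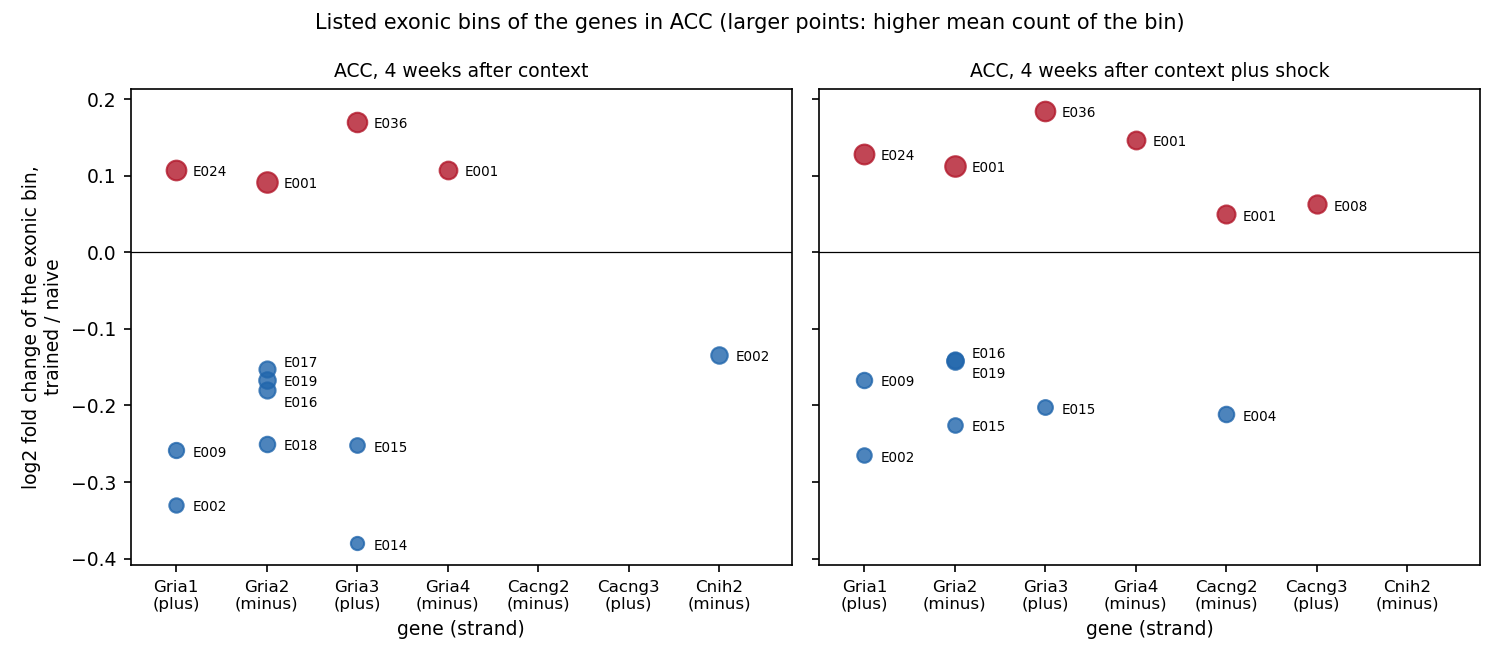
Log2 fold change (trained over naive mice) of each listed exonic bin of the genes in ACC, from the authors' deposited exon tables. The left panel is after context and the right panel after context plus shock. The fold changes are assumed to be relative to the rest of the gene, and bins not listed are not drawn. Red points are higher and blue points lower, and a larger point marks a bin with a higher mean count. Every red point is an E001 bin of a minus-strand gene or a high-numbered bin of a plus-strand gene.

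Genes around the receptor were counted by role, beside 8.03% of all genes called in CA1 after context, 6.05% in CA1 after shock, 19.6% in ACC after context and 41.6% in ACC after shock. With the length and GC trend subtracted, the shares of all genes were 4.13%, 6.09%, 9.88% and 24.4% in the same order. Among 18 further auxiliary and biogenesis genes, 2 rose and 0 fell in CA1 after context, 2 rose and 2 fell in CA1 after shock, 2 rose and 3 fell in ACC after context, and 7 rose and 5 fell in ACC after shock. Once the length and GC trend was subtracted, 1 passed in CA1 after context (higher), 1 higher and 2 lower in CA1 after shock, 1 in each direction in ACC after context, and 4 higher and 6 lower in ACC after shock. Shisa6, an auxiliary subunit that traps receptors at synapses, rose in CA1 after context (0.23, adjusted p = 0.041) and after shock (0.25, adjusted p = 0.0217) and fell in ACC after context (-0.39, adjusted p = 0.0114) in the authors' deposited tables. None of these 3 calls of Shisa6 held with the trend subtracted (0.15, 0.21 and -0.25, adjusted p = 0.323, 0.0681 and 0.21). Cacng7, another TARP, rose in CA1 after context at 0.17 (adjusted p = 0.00219) in the authors' deposited table. Gsg1l, an auxiliary subunit that dampens receptor currents, fell in CA1 after shock at -0.44 (adjusted p = 0.00329) in the authors' deposited table, and Olfm2 fell there at -0.32. Frrs1l, needed for receptor assembly in the endoplasmic reticulum, rose in CA1 after shock (0.16) and fell in ACC after context (-0.27) and after shock (-0.41, adjusted p = 2.12e-37) in the authors' deposited tables. With the trend subtracted, Frrs1l was at -0.11 in ACC after context (adjusted p = 0.354), no longer past the threshold, and at -0.19 after shock (adjusted p = 9.44e-08). In ACC after shock Cpt1c (0.35) and Prrt1 (0.42) rose and Sacm1l (-0.24) fell in the authors' deposited table, and these 3 passed at 0.22, 0.21 and -0.11 with the trend subtracted. Olfm1 (0.22) and Cnih1 (0.20) rose in ACC after context in the authors' deposited table, and with the trend subtracted Olfm1 passed at 0.16 and Cnih1 did not (0.10, adjusted p = 0.38).

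Of 20 genes that anchor, exchange or recycle the receptors, 3 rose and 1 fell in CA1 after context and likewise 3 and 1 after shock, 0 rose and 7 fell in ACC after context, and 3 rose and 10 fell in ACC after shock. With the length and GC trend subtracted, the counts were 0 higher and 1 lower in CA1 after context, 2 and 1 in CA1 after shock, 0 and 1 in ACC after context, and 1 and 5 in ACC after shock. Of all genes, 4.13%, 6.09%, 9.88% and 24.4% then passed. The median log2 fold change of these 20 in ACC was -0.09 after context and -0.08 after shock. Dlg4, which encodes the scaffold PSD-95, rose in CA1 after context (0.20, adjusted p = 0.0207) and after shock (0.19, adjusted p = 0.0473) in the authors' deposited tables. In ACC Dlg4 was at -0.11 (adjusted p = 0.339) after context and -0.0058 (adjusted p = 0.927) after shock in the authors' deposited tables. With the trend subtracted, Dlg4 did not pass in CA1 (0.17 both times, adjusted p = 0.109 and 0.0945) and passed in ACC after shock at 0.16 (adjusted p = 0.000837). Its relative Dlg2 fell in ACC, at -0.48 after context and -0.59 (adjusted p = 1.14e-30) after shock in the authors' deposited tables, and passed at -0.30 and -0.35 with the trend subtracted. Myo5a, a motor of spine transport, fell in ACC at -0.24 and -0.35 in the same authors' deposited tables, and went to 0.03 and -0.05 with the trend subtracted, neither past the threshold. Stx3, a syntaxin of receptor exocytosis, fell in CA1 at -0.39 after context and -0.42 after shock in the authors' deposited tables. Epb41l1 rose in CA1 after context (0.18), and Dlg3 (0.18) and Arc (0.81, adjusted p = 0.0258), an immediate early gene of receptor endocytosis, rose after shock in the authors' deposited tables. Pick1 (0.20) and Cplx1 (0.14) rose in ACC after shock in the authors' deposited table. With the trend subtracted, none of Epb41l1 (0.06, adjusted p = 0.643), Pick1 (0.10, adjusted p = 0.131) and Cplx1 (-0.04, adjusted p = 0.582) passed.

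Among 13 kinase and phosphatase genes, 0 rose and 1 fell in CA1 after context and none was called after shock in CA1, while 2 rose and 1 fell in ACC after context and 5 rose and 5 fell in ACC after shock, where 41.6% of all genes were called. After the length and GC trend was subtracted, none passed in CA1. In ACC, 2 passed after context, both higher, where 9.88% of all genes passed. After shock in ACC, 2 higher and 5 lower passed, where 24.4% of all genes did. Ppp1ca, a catalytic subunit of protein phosphatase 1, rose in ACC at 0.28 after context and 0.25 after shock (log2 fold changes) in the authors' deposited tables. Prkca, a protein kinase C, fell in ACC at -0.21 after context and -0.33 after shock in the same authors' deposited tables. Ppp3ca, a catalytic subunit of calcineurin, fell in CA1 after context (-0.17) and in ACC after shock (-0.34) in the authors' deposited tables. With the trend subtracted, Ppp1ca passed after context (0.15) and not after shock (0.04, adjusted p = 0.254). Prkca then was at -0.02 after context (adjusted p = 0.919) and passed at -0.10 after shock, and Ppp3ca did not pass in CA1 (-0.16, adjusted p = 0.0658) and passed in ACC at -0.22.

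The 3 genes of adenosine-to-inosine RNA editing enzymes included Adarb1, whose product edits the Gria2 transcript. In the authors' deposited tables Adarb1 rose in CA1 after context (0.17, adjusted p = 0.0116), was at 0.10 (adjusted p = 0.262) after shock, and fell in ACC after context (-0.29, adjusted p = 1.97e-09) and after shock (-0.27, adjusted p = 4.00e-15). Adar rose in CA1 after context (0.19) and fell in ACC after context (-0.32) and after shock (-0.21) in the authors' deposited tables. With the length and GC trend subtracted, both falls in ACC still passed for Adarb1 (-0.17 and -0.21) and for Adar (-0.24 and -0.18), and neither gene passed in CA1 after context. Editing itself was not measured.

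A list of 8 genes for extracellular clustering held neuronal pentraxins and other secreted or surface proteins of the synapse. That each of them clusters AMPA receptors is not shown here. Of these 8 genes, 2 rose and 0 fell in CA1 after context, and 2 rose and 1 fell in CA1 after shock. In ACC 2 rose and 1 fell after context, and 1 rose and 2 fell after shock. The 3 of 8 called in ACC after shock are 37.5%, below the 41.6% of all genes. After subtraction of the trend the counts in CA1 were the same, and in ACC 1 passed after context (higher) and 1 in each direction after shock. The shares of all genes were then 4.13% and 6.09% in CA1, and 9.88% and 24.4% in ACC. Nptx2, the activity-regulated neuronal pentraxin, was called higher in all 4 comparisons, at 0.44 and 0.62 in CA1 and 0.54 and 0.59 in ACC in the authors' deposited tables, and in ACC after context it did not pass with the trend subtracted (0.49, adjusted p = 0.132). Nptx1 rose in CA1 after context (0.36) and after shock (0.32) in the authors' deposited tables. Cbln1 fell in CA1 after shock (-0.63, adjusted p = 0.0201), and Lrrtm2, a postsynaptic adhesion protein, fell in ACC after context (-0.22) and after shock (-0.29) in the authors' deposited tables. Nptxr rose in ACC after context (0.12) and C1ql3 fell in ACC after shock (-0.21) in the authors' deposited tables. With the trend subtracted Lrrtm2 did not pass (-0.08, adjusted p = 0.608, and -0.04, adjusted p = 0.664), while Nptxr passed at 0.19 and C1ql3 at -0.32.

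The genes whose 4 fold changes lay nearest to those of each subunit were found by Euclidean distance over 12292 genes with a base mean of at least 50 in all 4 tables, as a description. Nearest to Gria1 were Det1 (distance 0.0330) and Dapp1 (0.0431), where the median gene lay at 0.467. Nearest to Gria2 were 1190002N15Rik (0.0610) and Kcnj3 (0.0848), with -0.47 and -0.41 in ACC after shock in the authors' deposited table. Nearest to Gria3 were Cdc5l (0.0226) and Tmtc4 (0.0243), and nearest to Gria4 were Evi5 (0.0413) and Acap2 (0.0567). None of these 8 genes belongs to the receptor lists above.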

How the data were processed

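Per the labels' protocols, RNA came from a Tri Reagent extraction and a TruSeq kit was used for the libraries. Build mm10 and the tools DESeq2, SAMtools, STAR 2.3.0e and CASAVA 1.8.2 are named in the submitters' processing notes. What each tool did, the annotation, the strand setting and how exons were tested is not given in the sources used here. Each of 4 gene tables and 4 exon tables holds, per the file headers, a base mean (the authors' average of a normalised count signal), a log2 fold change computed by the authors, and p-values and adjusted p-values as the authors deposited them. Overlapping genes, such as Gm25749 inside Gria2, may share reads. Whether each library is a separate mouse is not stated, so the p-values may measure technical spread.

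The plan preferred a model of counts or limma, which need library values; the tables hold comparisons only, so the deposited adjusted p was used and no model was fitted to counts. The 9 genes, the lists and the tests were chosen with earlier results of these data known. Other genes were named by rule: up to 2 calls of each list in each direction with the smallest p, with Adarb1 and Dlg4 always, and the 2 genes nearest to each subunit. The error of a fold change is the fold change divided by the normal score of its p; in CA1 after shock, values under 0.05 in size took the error of the context table times 1.08. Differences of fold changes used the root of the summed squared errors and ignore shared naive mice, whose variance was taken out as an alternative. That alternative assumed the naive variance from the smaller squared error and left the larger error. Transcript lengths and GC content came from GENCODE M21 (matched for 99.1% of genes), and splines with 5 knots were subtracted as an alternative. Steps were tested on simulated data. Python 3.11.15, numpy 2.4.6, scipy 1.17.1, pandas 2.3.3, scikit-learn 1.9.0 and matplotlib 3.10.9 were used.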

Additional observations from a re-analysis of the deposited data

Results flagged for a closer look

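Both results concern the response to context plus shock, which differed between ACC at 4 weeks and CA1 at 1 h by the test of the difference itself. The log2 fold change of Gria1 was lower in ACC by a difference of -0.35 (adjusted p = 0.000407), from 0.33 in CA1 and -0.02 in ACC in the authors' deposited tables. The difference for Gria2 was -0.42 (adjusted p = 0.000246), from -0.03 in CA1 and -0.45 in ACC in the authors' deposited tables. The CA1 error of Gria2 used in this test was borrowed from the context comparison. Across all genes 25.0% differed by the same test. With the length and GC trend subtracted the difference was -0.23 for Gria1 (adjusted p = 0.0411) and -0.0057 for Gria2 (adjusted p = 0.983). No share of all genes is given here for the subtracted differences. Region and time cannot be told apart here.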

How the results depend on the processing

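No paired analysis was possible because the tables hold no values per library, and for the same reason leaving out a library, another normalisation and a count model were not run. In CA1 after context the 1 called gene became 0 at an adjusted p under 0.01 and 0 with Bonferroni, and 2 with the length trend subtracted, when Gria2 passed at -0.30. In CA1 after shock the 2 became 1 at an adjusted p under 0.01 and 0 with Bonferroni. In ACC after context the 1 became 2 at an adjusted p under 0.1, 2 among genes with a base mean of at least 100 (Gria4 entering both times), 0 at an absolute log2 of at least 0.25, 0 with length and GC or length alone subtracted, and 0 with Bonferroni. In ACC after shock the 6 became 3 at an absolute log2 of at least 0.25, 3 with Bonferroni, 3 with length subtracted and 2 with length and GC subtracted, where Gria3 turned from -0.15 to 0.071. Listed bins of the genes numbered 1 instead of 2 in CA1 after shock at an adjusted p under 0.05 or 0.01, and at 0.01 were 8 instead of 13 in ACC after context and 3 instead of 13 after shock. The cause of these changes was not tested beyond the settings themselves. Of 324 single fold changes under these settings 296 kept their side of the threshold, 22 lost the call in the same direction, 5 gained it and 1 called value reversed. Of the 296, 274 kept their sign, 13 uncalled values turned sign and 9 belong to Gria3 in CA1 after shock, listed at 0. Of 90 differences between comparisons 87 kept their side of the threshold, 15 of them with the sign turned, 2 gained the call and 1 lost it. Over all genes, with length and GC subtracted 619 were called instead of 1214 in CA1 after context, 1495 instead of 2987 in ACC after context and 3733 instead of 6433 in ACC after shock. Depth is unknown, so no limit from counting can be given.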
